A study of Mus musculus with 10 samples.

Results

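The genes described here are 36 genes of the cell division cycle, chosen by name for their part in DNA replication, cell cycle control and chromosome segregation, by a rule that reads no measured value. They are 36 of the 20556 gene names in the tables of 4 histone marks, and each contributed every peak whose nearest gene carried its name. The marks were measured by ChIP-seq, in which DNA bound to a modified histone is pulled down with an antibody and sequenced, in mouse neutrophils taken by sorting and used without culture. The KO mice lacked Morrbid, a long non-coding RNA known to restrain the pro-apoptotic gene Bcl2l11 in short-lived myeloid cells, on a C57BL6 background. The WT mice were C57BL6. Each mark had 1 KO and 1 WT library, so no difference between the genotypes has a replicate check, no test was possible and no p-value is given. The ages, the number of animals behind a library and the kind of Morrbid allele are not given in the sources used here.

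Mature neutrophils have left the cell cycle, and the last dividing cells of the lineage are earlier precursors in the bone marrow. The division genes are classical targets of E2F factors at the entry into DNA synthesis and of the DREAM complex, which binds their promoters in resting cells, with CHR elements marking genes of G2 and mitosis. Of the 4 marks, H3K4me3 lies at transcription starts, H3K27ac at active promoters and enhancers, H3K4me1 around both, and H3K36me3 is laid down along the bodies of transcribed genes. The question put to the data was which of these genes keep such marks in cells that no longer divide.

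The promoter windows of 4 members show the E2F and CHR words discussed below. They were taken from members at the top or the bottom of the start marks that hold such a word. Members at these ends without an E2F or CHR word, such as Cenpe, were not printed. Mcm7 and Cdk2 were among the highest for H3K4me3 or H3K27ac, and Cdc6 and Top2a were among the lowest. Each line holds the 250 bases before the RefSeq start on build GRCm38.p6, 5′ to 3′ in the direction of the gene, with E2F and CHR words of either strand in capitals. Mcm7 is on the minus strand at chr5:138171884-138172133, Cdk2 on the minus strand at chr10:128705052-128705301, Cdc6 on the plus strand at chr11:98907901-98908150 and Top2a on the minus strand at chr11:99024190-99024439.
Mcm7: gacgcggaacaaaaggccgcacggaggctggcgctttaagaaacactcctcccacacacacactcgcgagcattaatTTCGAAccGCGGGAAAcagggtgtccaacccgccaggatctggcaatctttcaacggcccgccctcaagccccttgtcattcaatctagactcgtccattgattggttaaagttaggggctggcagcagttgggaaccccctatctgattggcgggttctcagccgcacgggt
Cdk2: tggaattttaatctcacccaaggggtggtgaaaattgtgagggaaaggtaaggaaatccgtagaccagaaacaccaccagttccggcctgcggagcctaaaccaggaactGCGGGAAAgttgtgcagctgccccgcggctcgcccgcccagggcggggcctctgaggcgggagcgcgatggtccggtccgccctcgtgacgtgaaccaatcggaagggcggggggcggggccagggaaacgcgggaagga
Cdc6: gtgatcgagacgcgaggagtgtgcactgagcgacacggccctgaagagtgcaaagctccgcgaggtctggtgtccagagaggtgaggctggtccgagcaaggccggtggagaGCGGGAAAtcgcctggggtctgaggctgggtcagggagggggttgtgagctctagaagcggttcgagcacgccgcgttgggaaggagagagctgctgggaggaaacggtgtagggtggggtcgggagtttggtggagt
Top2a: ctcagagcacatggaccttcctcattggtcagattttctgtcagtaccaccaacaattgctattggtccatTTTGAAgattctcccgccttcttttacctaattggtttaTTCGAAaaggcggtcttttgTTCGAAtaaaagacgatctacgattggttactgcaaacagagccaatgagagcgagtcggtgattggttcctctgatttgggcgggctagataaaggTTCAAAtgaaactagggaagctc

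All 36 members had an H3K4me3 peak at the transcription start, meaning a consensus peak of both genotypes with the gene's name whose edge lay within 1 kb of it, against 64.3% of all genes. In all 36 this peak also overlapped an H3K27ac peak, against 81.3% of the 13224 genes with an H3K4me3 start peak. The members parted by mark from there. By signal per kb of peak, their H3K36me3 inside the gene body was high, their start H3K4me3 was near that of other marked genes, and their start H3K27ac was low. The count behind the last depended on dividing by width, as given below.

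To compare genes, the signal of a peak was divided by its width and expressed as normalized reads per kb, and a gene was counted as high when it lay at or above the median of all genes with that mark in both the KO and the WT library. By this measure 20 of the 36 members (55.6%) were high for start H3K4me3, against 30.2% of all genes and 46.9% of genes with an H3K4me3 start peak. For start H3K27ac 6 members (16.7%) were high, namely Cdk2, Aurka, Mcm3, Cdc45, Cenpe and Ttk, against 24.3% of all genes and 35.8% of genes with an H3K4me3 start peak. Of these, Aurka and Cdc45 have the start of a gene on the other strand within 1 kb. Start marks of such pairs cannot be told apart. For H3K36me3 summed over every peak with the gene's name 25 members were high, against 27.7% of all genes. Counting only H3K36me3 peaks annotated inside a transcript of the gene itself, 26 members (72.2%) were high, against 23.5% of all genes and 32.1% of genes with an H3K4me3 start peak. The median member stood at percentile 64.1 in the KO and 55.3 in the WT for H3K4me3, at 33.9 in the KO and 33.7 in the WT for H3K27ac, and at 83.1 in the KO and 77.0 in the WT for own-transcript H3K36me3, where 29 members had such a peak. When the start signal was summed and not divided by width, 14 members in place of 6 were high for H3K27ac. The share of all genes by summed signal is not given, so whether 14 is few or many cannot be told. The members' H3K27ac start peaks had a median width of 2732 bp against 2278.5 bp over all genes, and the part of width in this change was not tested.

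**Figure D1:**
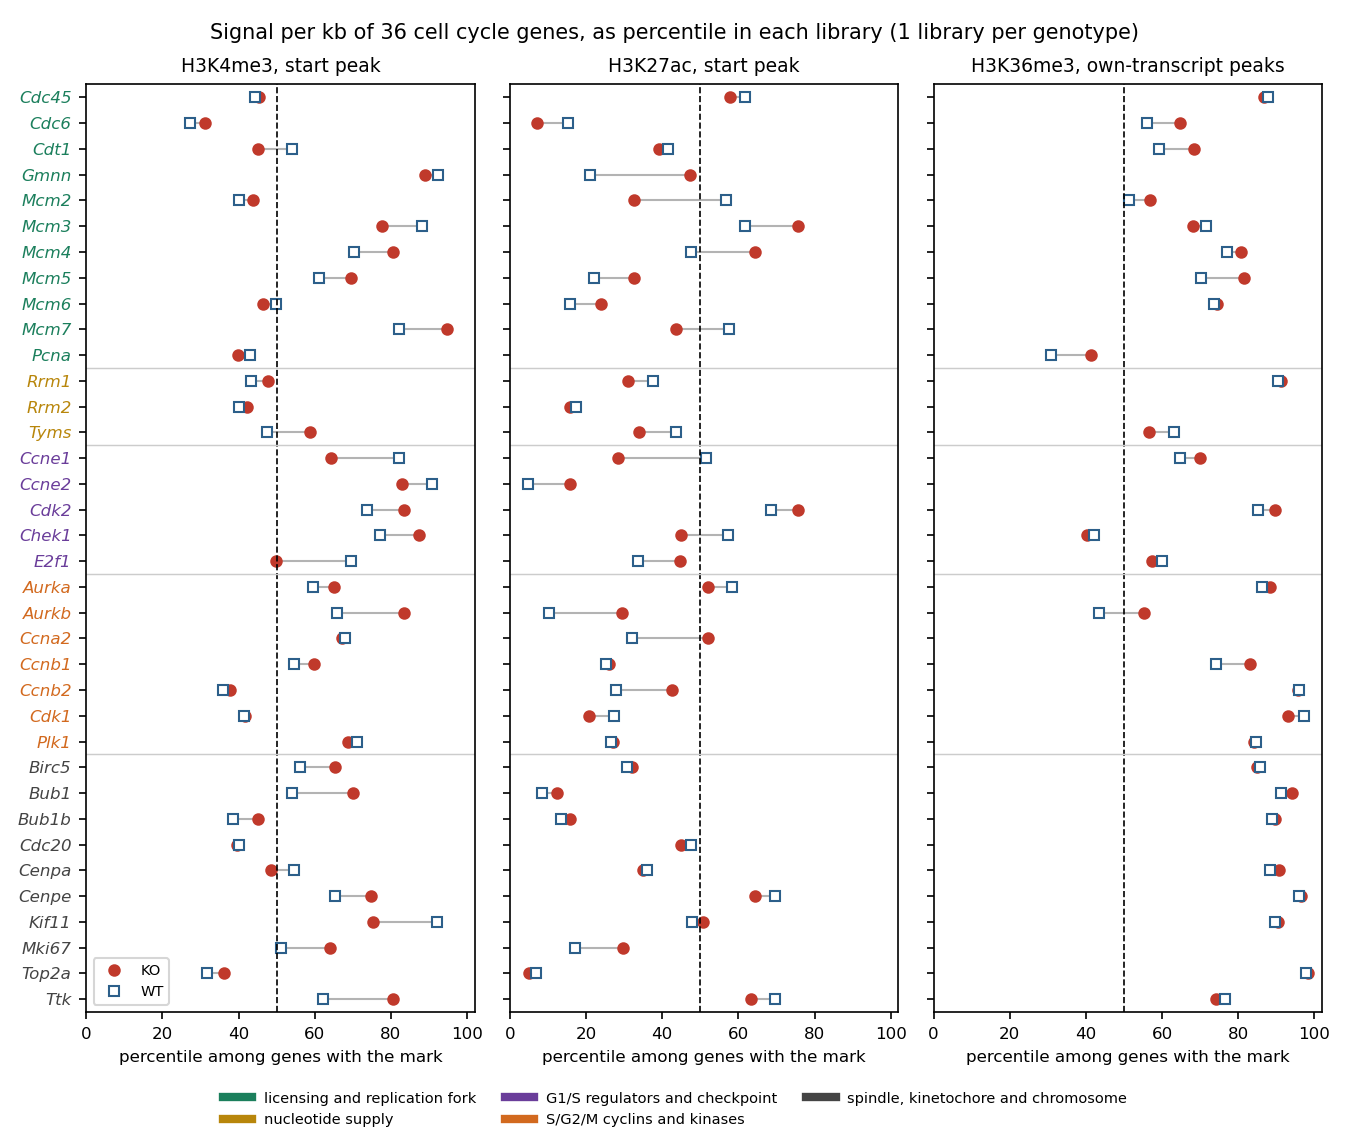
Percentile of each of the 36 members among all genes with the mark (x axis, 0 to 100, dashed line at the median) for start H3K4me3, start H3K27ac and own-transcript H3K36me3, with 1 filled circle for the KO library and 1 open square for the WT library per gene, and gene names coloured by role. Start H3K27ac of most members lies left of the dashed line and own-transcript H3K36me3 right of it, with 6 and 26 members at or above it in both libraries; a missing symbol means that no such peak carries the gene's annotation.

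The genes of licensing and the replication fork spanned the members' range of start H3K4me3, with medians of 123.0 per kb in the KO and 131.0 in the WT. Their median start H3K27ac, over the 10 with such a peak, was 55.7 in the KO and 57.9 in the WT. These genes load the MCM2-7 helicase before S phase (Cdc6, Cdt1 and the Mcm genes), hold licensing back (Gmnn), convert the helicase to its active form (Cdc45) or clamp the polymerase to DNA (Pcna). Of these 11 genes, 5 were high for H3K4me3, 2 for H3K27ac and 8 for own-transcript H3K36me3. Mcm7, a helicase subunit, had the highest KO value of start H3K4me3 among all members, 234.7 normalized reads per kb in the KO and 195.9 in the WT, in a peak at chr5:138611646-138614468 (build mm9). Gmnn, which encodes geminin, had 211.9 in the KO and 232.7 in the WT. Both stood above the median member of 158 in the KO and 134 in the WT. The start of Ap4m1 on the other strand lies within 1 kb of that of Mcm7, so their start marks cannot be told apart.

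Cdc6, the loading factor of the helicase, was at the other end, with the lowest start H3K4me3 of all 36 members, 84.5 normalized reads per kb in the KO and 61.9 in the WT. Its start H3K27ac of 25.2 per kb in the KO and 32.7 in the WT was also low, at percentile 7.21 in the KO and 15.2 in the WT. Its own-transcript H3K36me3 was 43.7 per kb in the KO and 39.9 in the WT, above the medians of all genes with such a peak, 36.1 in the KO and 37.0 in the WT. Mcm3, another helicase subunit, carried all 3 marks above the median, with start H3K27ac of 93.6 per kb in the KO and 74.1 in the WT. Its start H3K27ac peak was the narrowest of the members and held 158 KO reads and 28 WT reads. Pcna, the sliding clamp, had no H3K27ac peak under its own name, but its H3K4me3 start peak overlapped an H3K27ac peak named for Tmem230, with 72.2 normalized reads per kb in the KO and 64.2 in the WT. Both values are above the medians of genes with the mark, 63.9 in the KO and 62.8 in the WT. Pcna is nevertheless not among the members counted as high for H3K27ac, because that count goes by the gene's name. Pcna had the second lowest own-transcript H3K36me3 in the KO and the lowest in the WT, 32.3 per kb in the KO and 28.6 in the WT.

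Rrm1 and Rrm2, the subunits of ribonucleotide reductase, and Tyms, thymidylate synthase, supply deoxynucleotides. None of these 3 genes was high for either start mark in both libraries. Their median start H3K27ac was 46.5 per kb in the KO and 52.0 in the WT, against medians over all genes of 63.9 in the KO and 62.8 in the WT. Rrm1 and Tyms were nevertheless high for own-transcript H3K36me3, Rrm1 with 60.1 per kb in the KO and 59.7 in the WT and Tyms with 39.5 in the KO and 43.5 in the WT.

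The G1/S regulators held the strongest start H3K4me3 of the roles, with 4 of 5 genes high and medians of 196.7 per kb in the KO and 182.4 in the WT. Ccne2, which encodes cyclin E2, had 196.7 per kb in the KO and 225.5 in the WT for H3K4me3. For start H3K27ac the same gene was near the bottom of the members, with 33.6 per kb in the KO and 17.98 in the WT, from 117 KO reads and 14 WT reads. Cdk2, the kinase that pairs with the E and A cyclins, had the highest start H3K27ac of the members by its mean over both libraries, 93.6 per kb in the KO and 82.0 in the WT, in a peak at chr10:128139941-128142960 (build mm9). Cdk2 was also high for H3K4me3, with 198 per kb in the KO and 173.5 in the WT, and for own-transcript H3K36me3, with 58.9 in the KO and 55.6 in the WT. Chek1, the replication checkpoint kinase, had low own-transcript H3K36me3, 31.9 per kb in the KO and 33.1 in the WT, and E2f1, the transcription factor, had 39.7 in the KO and 41.8 in the WT.

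Among the 7 cyclins and kinases of S, G2 and M phase, 5 were high for H3K4me3, 1 for H3K27ac and 5 for own-transcript H3K36me3. Aurka, the centrosomal Aurora kinase, was the one high for all 3, with 160.2 per kb in the KO and 143.6 in the WT for H3K4me3, and 66.1 in the KO and 70.5 in the WT for H3K27ac. Cdk1, the mitotic kinase, had start H3K27ac of 37.8 per kb in the KO and 43.6 in the WT, beside own-transcript H3K36me3 of 62.0 in the KO and 68.0 in the WT. Ccnb2, which encodes cyclin B2, was likewise among the 3 lowest members for start H3K4me3, 102.7 per kb in the KO and 87.5 in the WT, and among the 3 highest for own-transcript H3K36me3, 65.6 in the KO and 66.0 in the WT. Aurkb, the kinase of the chromosomal passenger complex, had the least own-transcript H3K36me3 of the 6 of these genes with such a peak, 38.7 per kb in the KO and 33.7 in the WT.

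The genes of the spindle, the kinetochore and the chromosomes had the highest median gene-body methylation of the roles. Of these 10 genes, 8 were high for own-transcript H3K36me3, with medians of 59.6 per kb in the KO and 58.7 in the WT, against 36.1 in the KO and 37.0 in the WT over all genes. Top2a, the topoisomerase that untangles sister chromosomes, had the highest own-transcript H3K36me3 of all members, 71.0 per kb in the KO and 69.4 in the WT, at percentiles 98.2 in the KO and 97.9 in the WT. The same gene had the lowest start H3K27ac of the members in the KO, 22.4 per kb, against 21.7 in the WT, at percentiles 5.07 in the KO and 6.81 in the WT. Its start H3K4me3, in a peak at chr11:98882633-98886291 (build mm9), was 97.9 per kb in the KO and 75.9 in the WT.

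Bub1, a kinase of the spindle checkpoint, showed the same order of marks, with start H3K27ac of 30.8 per kb in the KO and 24.4 in the WT and own-transcript H3K36me3 of 63.1 in the KO and 60.3 in the WT. Cenpe, a kinetochore motor, and Ttk, the checkpoint kinase also called Mps1, were the members of this role high for all 3 marks. Cenpe had 178.9 per kb in the KO and 155.6 in the WT for H3K4me3, 78.7 in the KO and 83.1 in the WT for H3K27ac, and 66.8 in the KO and 66.0 in the WT for own-transcript H3K36me3. Ttk had 191.1 per kb in the KO and 148.9 in the WT for H3K4me3, 77.7 in the KO and 83.2 in the WT for H3K27ac, and 48.5 in the KO and 50.4 in the WT for own-transcript H3K36me3. Mki67, which encodes the proliferation antigen Ki-67, was high for H3K4me3, 158.3 per kb in the KO and 124.4 in the WT, and low for H3K27ac, 45.4 in the KO and 34.5 in the WT.

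High values of all 3 marks together were found in 5 members with own-transcript H3K36me3 (Aurka, Cdk2, Cenpe, Mcm3 and Ttk) and in 4 with H3K36me3 by gene name, the same genes without Cdk2. As a share of the members these are 13.9% and 11.1%. Over all genes the shares were 9.87% with own-transcript H3K36me3 and 9.46% by gene name, and 15.3% with own-transcript H3K36me3 among genes with an H3K4me3 start peak, so the joint count of the members is near the background. Start marks of Aurka cannot be told apart from those of its neighbour Cstf1.

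The opposite combination, own-transcript H3K36me3 at or above the median with start H3K27ac below the median in both libraries, was singled out after the values had been seen. It held for 16 of the 28 members that had both kinds of peak (57.1%), against 13.1% of 8182 such genes. Both levels were taken per kb, and the combination is not given for summed signal. The 16 were Birc5, Bub1, Bub1b, Ccnb1, Ccnb2, Cdc6, Cdk1, Cdt1, Cenpa, E2f1, Mcm5, Mcm6, Plk1, Rrm1, Top2a and Tyms. Among them Birc5 and Cenpa encode survivin and the centromeric histone, Bub1b a spindle checkpoint protein, Plk1 a mitotic kinase and Ccnb1 cyclin B1. The percentile of H3K36me3 exceeded that of H3K27ac in both libraries in 25 of the 28 members (89.3%), the exceptions being Chek1, Mcm2 and Mcm3, against 40.6% of genes. Across the 28 members the Spearman correlation of start H3K27ac with own-transcript H3K36me3 was -0.11 in the KO and -0.09 in the WT, where all 8182 genes gave 0.34 in the KO and 0.33 in the WT. The points of such a correlation share 1 library per mark, and it is given as a description.

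**Figure D2:**
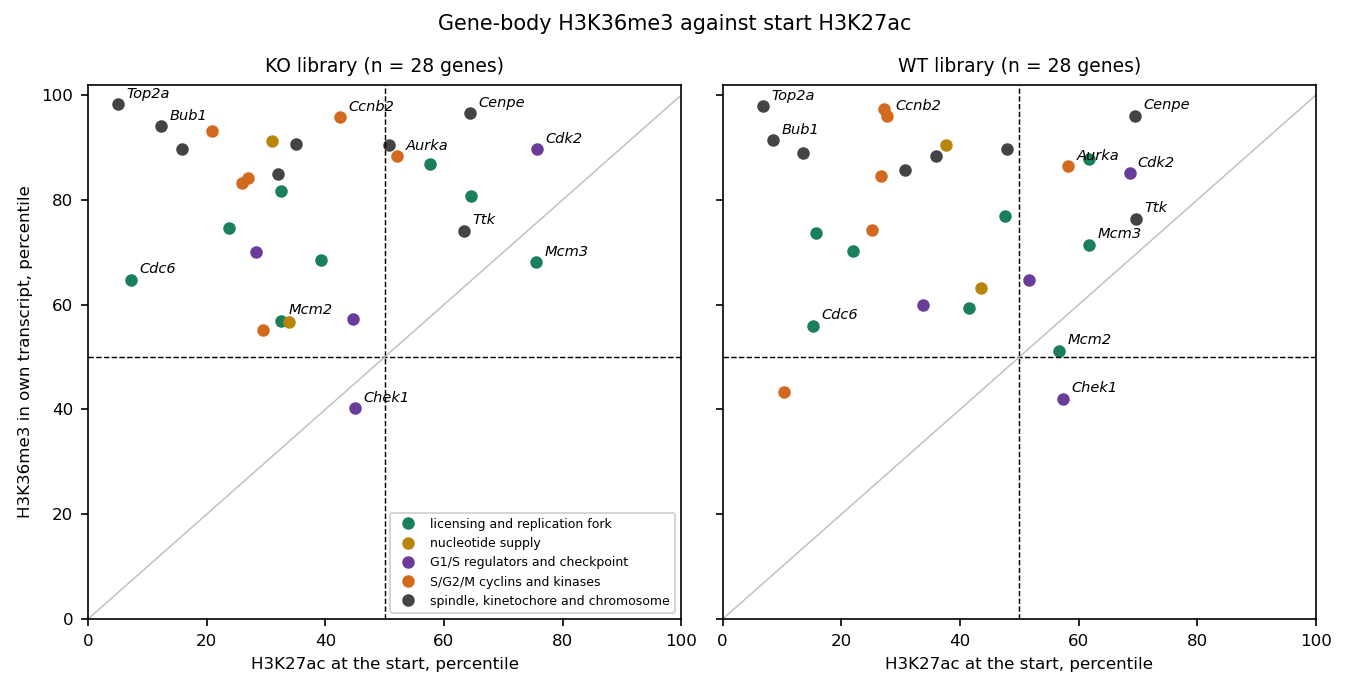
Start H3K27ac (x axis) against own-transcript H3K36me3 (y axis), both as percentiles among genes with the mark, for the 28 members with both kinds of peak, in the KO library (left) and the WT library (right), with points coloured by role, dashed lines at the medians and a grey line where both percentiles are equal. Most points lie in the upper left, with Top2a at percentiles 5.07 and 98.2 in the KO, and only Chek1, Mcm2 and Mcm3 fall under the grey line in at least 1 library.

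The gene names on H3K36me3 peaks need care, because these peaks are broad and are named for the transcription start nearest to their centre. Of 56 H3K36me3 peaks named for members, 24 were annotated inside the member's own transcript, 7 inside another gene and 25 between genes. The peaks named for Ccnb2, Mcm6 and Ccna2 lay in Rnf111, Dars and Exosc9, and most of the signal named for Rrm1 lay in Stim1. In the other direction 9 peaks inside members carried a neighbour's name, such as Rab5b for the peak in Cdk2 and Cldn5 for the one in Cdc45, and 7 members (Ccnb1, Cdk2, Pcna, Mcm7, Cdc20, Cdc45 and Birc5) had no H3K36me3 peak under their own name. The lowest values by name were therefore not those of the gene body. Ccne2 had 21.4 per kb in the KO and 15.1 in the WT in 1 intergenic peak, and Mki67 had 24.8 in the KO and 20.7 in the WT in 3 intergenic peaks.

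The names were left aside in a further count, also chosen after values had been seen, of H3K36me3 peaks in a window from 1 to 10 kb past the start in the direction of the gene. All 36 members had such a peak, against 67.3% of 12822 genes with an H3K4me3 start peak. In all 36 the peaks covered at least 50% of the window, against 48.4% of those genes. The covered share lay between 66.0% (Kif11) and 99.3% (Ttk), with a median of 88.8%, against 43.5% over the 15024 genes whose start could be placed. With a window of 1 to 5 kb the count was 35, Kif11, a spindle motor, falling to 23.5%. A peak over the window can also lie in a neighbour, and a peak was annotated to the member itself in 29 genes. Among these, Cdt1 and Pcna also had cover annotated to Galns and Tmem230. The peak was annotated to another gene for Ccna2, Ccne2, Cdc20, Mcm7 and Mki67, and to no gene for Gmnn and Rrm2. The peak over the window of Mcm7 was annotated to Mir106b, a microRNA gene hosted in an intron of Mcm7, and had 57.2 normalized reads per kb in the KO and 55.5 in the WT. That over Mki67 was annotated to the neighbour Ptpre, with 70.1 in the KO and 68.8 in the WT.

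**Figure D3:**
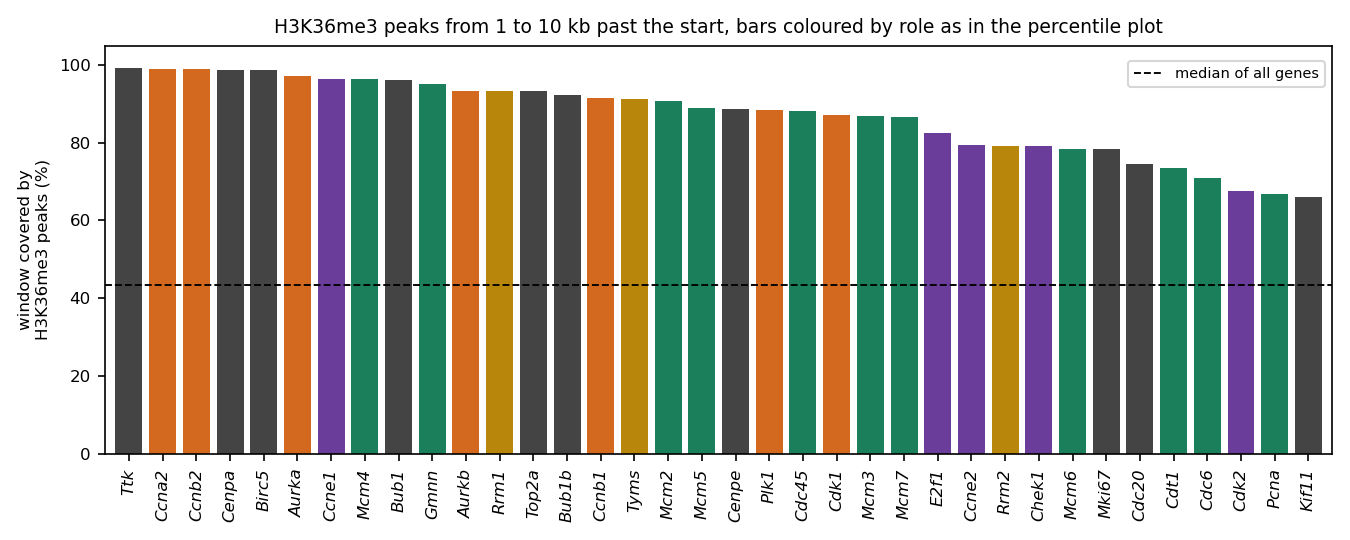
Share of the window from 1 to 10 kb past the start that H3K36me3 peaks cover (y axis, percent) for each of the 36 members, with bars coloured by role. Peaks are the consensus of both genotypes, so there is 1 bar per gene; every bar, between 66.0% and 99.3%, lies above the dashed median of 43.5% over all genes.

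H3K4me1 was summed over all peaks with the gene's name. By the mean of both libraries it was highest for Cdc45, with 59.1 normalized reads per kb in the KO and 55.8 in the WT. Next by that mean were Cdc20, an activator of the anaphase-promoting complex, with 49.3 in the KO and 53.1 in the WT, and Cdt1 with 51.3 in the KO and 50.1 in the WT. Mcm7 had the highest value in the WT, with 43.3 in the KO and 57.3 in the WT. H3K4me1 was lowest in both libraries for Mcm4, with 28.8 in the KO and 22.6 in the WT. Peaks of H3K4me1 more than 5 kb from the start were named for 23 members, 74 in all. Of these peaks 37 overlapped H3K27ac, and the share over all genes is not given, so whether this is many or few cannot be told. The other 13 members (36.1%) had none, against 31.1% of genes. Mki67 had 17 of the 74, reaching 197.4 kb from its start, and Rrm1 had 11; a peak takes the name of the nearest gene, and a link to that gene was not tested.

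Between the genotypes the members' median changes were small. A gene's change is the log2 ratio, KO over WT, of its summed normalized signal, with 1 added to both and the median of strong genes set to 0, given for members with at least 20 reads in each library. For H3K4me1 35 members passed this filter, with a median log2(KO/WT) of 0.02 against -0.01 over 13927 genes. For H3K4me3 36 passed, with 0.12 against 0.03 over 13463 genes. For H3K27ac 34 passed, with 0.01 against 0.00 over 12139 genes, and for H3K36me3 28 passed, with 0.05 against 0.01 over 11039 genes. These sums go by gene name, and much of the H3K36me3 signal named for some members lies in neighbours or between genes. With only peaks of the gene's own transcripts and promoter the H3K36me3 median was 0.04 over 29 members. The KO library had more reads within peaks than the WT library, 5.87-fold for H3K4me1, 4.56-fold for H3K27ac, 3.85-fold for H3K4me3 and 1.13-fold for H3K36me3, so the WT reads set the precision of the first 3 marks. Changes above 0 were found in 82.1% of members for H3K36me3 by gene name, against 52.4% of genes, and the share for own-transcript peaks is not given. By gene name the shares were 66.7% against 55.8% for H3K4me3, 60% against 47.3% for H3K4me1 and 52.9% against 49.5% for H3K27ac. The exact 95% counting intervals, which cover counting error only, held 0 for 31 of 35 members in H3K4me1, for 29 of 34 in H3K27ac, for 27 of 36 in H3K4me3 and for 25 of 28 in H3K36me3. The same share over all genes is not given, so these counts cannot be set against a background.

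At least 1.5-fold higher in the KO was 1 member for H3K27ac (Ccne2) and none for the other marks, and 0 members were 1.5-fold lower for any mark. Of all genes that passed, 0.51% were higher and 1.86% lower for H3K4me1, 2.14% higher and 1.57% lower for H3K4me3, 1.03% higher and 2.86% lower for H3K27ac, and 1.75% higher and 1.09% lower for H3K36me3. The member counts are near these shares. Ccne2 had 103 normalized reads of H3K27ac in the KO and 60.6 in the WT, giving a log2(KO/WT) of 0.71 with a counting interval of 0.07 to 1.43 that rests on 22 WT reads. The next H3K27ac value was that of Ccna2, which encodes cyclin A2, with 227 in the KO and 162 in the WT and a log2 of 0.42 (0.02 to 0.85). Lowest was Mcm2, just inside the 1.5-fold line at a log2 of 0.58, with 97.3 in the KO and 140.4 in the WT, giving a log2(KO/WT) of -0.58 (-1.05 to -0.10), followed by Mcm7 with 120.1 in the KO and 145.9 in the WT and -0.34 (-0.78 to 0.13).

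For H3K4me3 the highest change was that of Cdc6, with 454 normalized reads in the KO library and 301 in the WT and a log2(KO/WT) of 0.52 (0.25 to 0.81). Without centring it was 0.59, past 1.5-fold. Bub1 followed with 341 in the KO and 247 in the WT and 0.39 (0.09 to 0.71), and with the KO reads thinned to the WT total Bub1 was the member past 1.5-fold, at 0.61, and Cdc6 had 0.46. Lowest were Kif11, with 691 in the KO and 866 in the WT and -0.39 (-0.57 to -0.22), and E2f1, with 575 in the KO and 711 in the WT and -0.38 (-0.57 to -0.18). Kif11 was low for H3K4me1 as well, with 397 in the KO and 489 in the WT and -0.33 (-0.60 to -0.06), below it only Mcm7 with 53.9 in the KO and 71.3 in the WT and -0.43 (-1.14 to 0.32). With only peaks of the gene's own transcripts and promoter the H3K4me1 value of Kif11 was -0.11. The highest H3K4me1 changes were those of Cdk1, with 353 in the KO and 241 in the WT and 0.52 (0.16 to 0.89), and Bub1b, with 523 in the KO and 387 in the WT and 0.40 (0.12 to 0.69).

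H3K36me3 had even depth and the narrowest range, between -0.11 for Cdk1, with 1243 normalized reads in the KO library and 1360 in the WT, and 0.28 (-0.41 to 0.99) for Mki67, with 41.2 in the KO and 34.3 in the WT. That value of Mki67 comes from 44 KO and 32 WT reads in intergenic peaks, none of them inside the gene, and was 0.13 when centred on a running median. Tyms had -0.09 (-0.24 to 0.05), with 717 in the KO and 778 in the WT, and Aurkb 0.22 (0.01 to 0.43), with 410 in the KO and 357 in the WT. By summed signal Top2a had 2670 in the KO and 2613 in the WT.

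**Figure D4:**
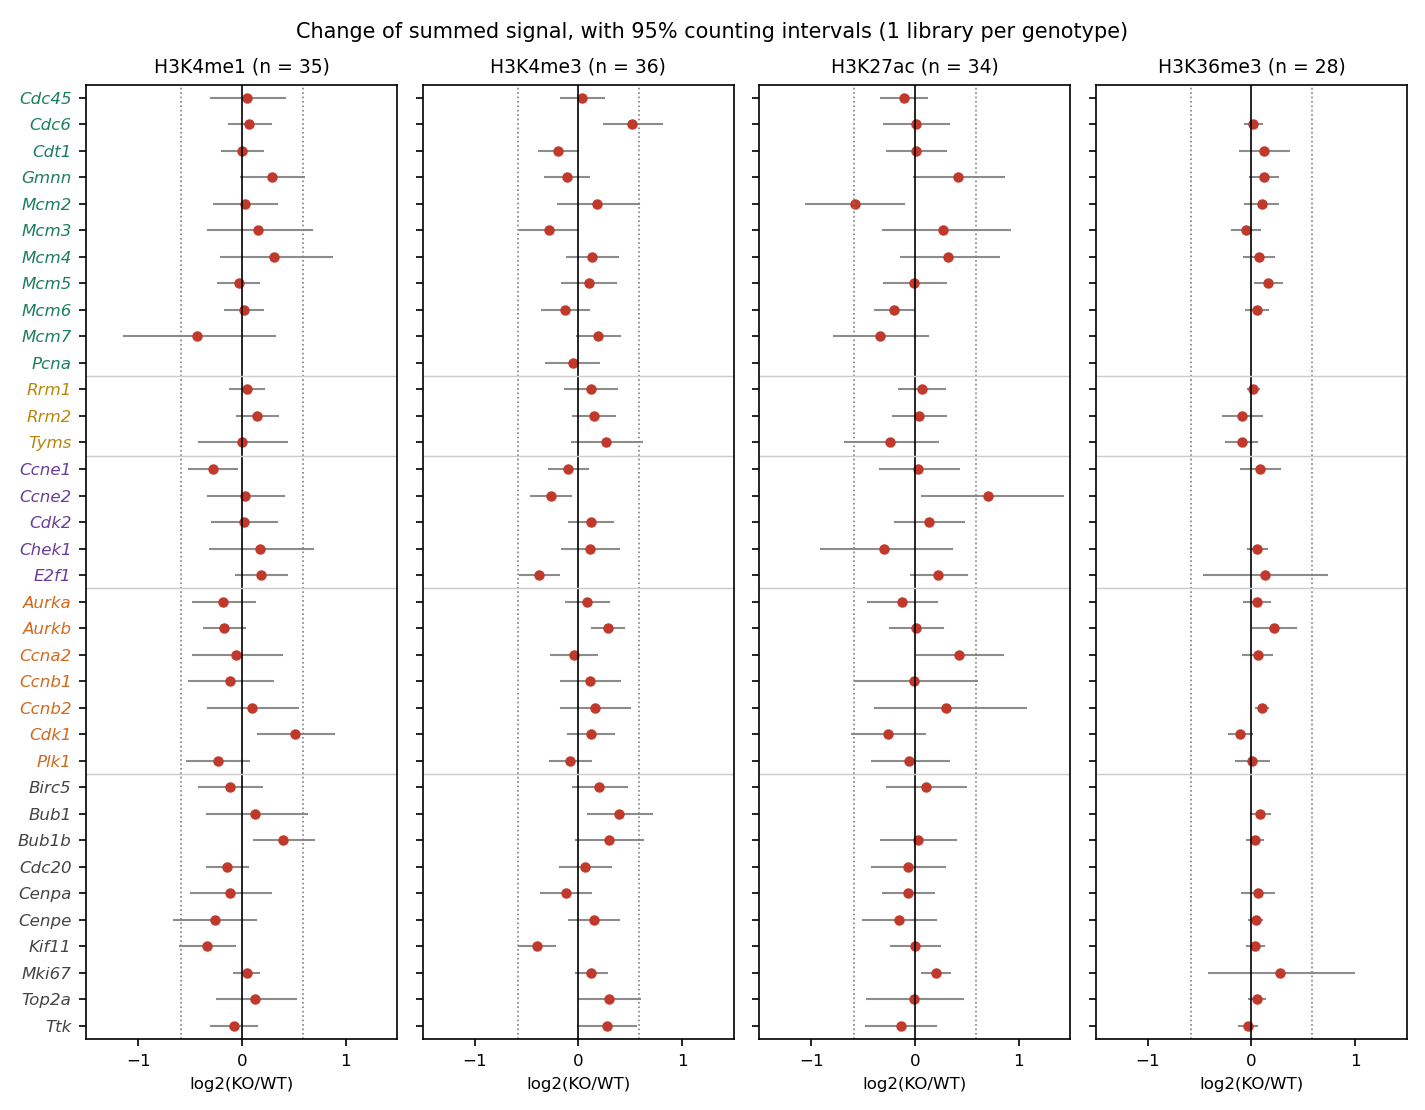
log2(KO/WT) of the summed signal of each member (x axis) for the 4 marks, for members with at least 20 reads in each library; points are the 1 KO library against the 1 WT library, bars are exact 95% counting intervals, and dotted lines mark a 1.5-fold difference. Points cluster near 0, the bars are shortest for H3K36me3, and 1 point, H3K27ac of Ccne2 at 0.71, lies past a dotted line.

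The wider division machinery, in lists of genes outside the 36, was counted by the same measure. Of 30 further replication genes 20 were high for start H3K4me3, 7 for start H3K27ac and 18 for own-transcript H3K36me3. Of 30 further mitosis genes 17 were high for H3K4me3, 9 for H3K27ac and 22 for H3K36me3, and of 15 genes of the E2F family and the DREAM complex 9 were high for H3K36me3, 11 for H3K4me3 and 4 for H3K27ac. The H3K27ac counts of these 3 lists are near the 24.3% of all genes and below the 35.8% of genes with an H3K4me3 start peak. Median start H3K27ac was 54.5 per kb in the KO and 50.7 in the WT for replication, and 57.9 and 52.1 for mitosis. For E2F with DREAM it was 59.2 in the KO and 58.9 in the WT. All lie under the medians over all genes, 63.9 in the KO and 62.8 in the WT. So start H3K27ac under these medians was not particular to the 36 members. Of the lists 2, replication and E2F with DREAM, have their highest count for H3K4me3. In these lists Tk1, thymidine kinase, had the highest own-transcript H3K36me3 of the replication genes by the mean of both libraries, 60.4 per kb in the KO and 55.2 in the WT, although Cdc7 was higher in the WT with 56.2. Kif23, a motor of cytokinesis, was highest of the mitosis genes by that mean, 68.2 in the KO and 68.6 in the WT, although Bub3 was higher in the WT with 68.9. The DREAM subunit Lin54 had the highest start H3K27ac of its list, 135.6 in the KO and 135.2 in the WT.

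The inhibitors of the cycle and the pocket proteins, 13 genes, had 8 high for H3K4me3, 8 for H3K27ac and 7 for own-transcript H3K36me3, and 5 high for all 3 (Btg1, Btg2, Rb1, Rbl2 and Tob1). The median start H3K27ac of the 36 members was 49.1 per kb in the KO and 48.8 in the WT, against 93.2 in the KO and 103.6 in the WT for these inhibitors. Cdkn1b, which encodes the inhibitor p27, had the highest, 178.2 in the KO and 179.6 in the WT. Btg2, an antiproliferative gene, had the highest own-transcript H3K36me3 of this list, 72.6 in the KO and 76.3 in the WT. Of the 5 genes for D cyclins and their kinases none was high for own-transcript H3K36me3, and the D-cyclin kinase gene Cdk6 had 318.1 per kb in the KO and 274.0 in the WT for start H3K4me3 but 25.7 in the KO and 23.8 in the WT for own-transcript H3K36me3. Past 1.5-fold in these lists were H3K27ac of Cdk4, lower at -1.16 (-1.95 to -0.38), of E2f6, lower at -0.69 (-1.31 to -0.05), of Lig1, higher at 0.62 (0.00 to 1.31), and of Cdca8, higher at 0.64 (0.11 to 1.23), and H3K4me3 of Cenpf, higher at 0.60 (0.28 to 0.94).

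The sorted cells were checked against marker genes. Of 12 neutrophil markers 11 had a peak, Ly6g being without one, and 4 were high for start H3K4me3, 5 for start H3K27ac and 8 for own-transcript H3K36me3, with Ltf at 104 per kb in the KO and 91.6 in the WT and Mmp9 at 94.1 in the KO and 96.9 in the WT. The markers of dividing granulocyte precursors (Mpo, Elane, Prtn3, Ctsg, Ms4a3 and Prss57) had 0 of 6 genes high for start H3K4me3, start H3K27ac or own-transcript H3K36me3. Dividing stages of the lineage that these 6 genes do not mark were not checked. The summed start H3K4me3 of the 6 genes was 249 per kb in the KO and 162 in the WT, and Elane was at percentile 1.8 in the KO and 1.9 in the WT. Their own-transcript H3K36me3 summed to 107 per kb in the KO and 90.6 in the WT over the 3 genes with such a peak, with Mpo, the myeloperoxidase gene, at 23.1 in the KO and 21.2 in the WT, and Elane, Prtn3 and Ctsg had none. Prtn3 and Ms4a3 were at least 1.5-fold higher in the KO for H3K4me3, with log2(KO/WT) of 0.69 (0.42 to 0.98) and 1.01 (0.54 to 1.52), and Ms4a3 also for H3K36me3, with 0.64 (0.01 to 1.33). In the other marker lists 1 neutrophil gene was past 1.5-fold higher for H3K4me3, and 1 B cell and 1 T cell gene for H3K36me3. Of the monocyte genes 1 was past 1.5-fold lower for H3K4me3 and 1 for H3K36me3. The median change of those precursor markers that passed the read filter was 0.33 for H3K4me3, 0.24 for H3K27ac, 0.16 for H3K36me3 and -0.03 for H3K4me1. The part of such cells in the members' medians of 0.12 for H3K4me3 and 0.05 for H3K36me3 was not tested. Medians above 0 were not particular to the precursor list. For H3K4me3 they were 0.46 for B cells (2 genes), 0.24 for stem cells, 0.14 for neutrophils and 0.07 for erythroid cells. T cells had -0.09 and monocytes -0.16. For H3K36me3 the medians were 0.56 for erythroid cells (1 gene), 0.32 for B cells (2 genes) and 0.29 for T cells (3 genes). The other H3K36me3 medians were 0.03 for neutrophils, -0.02 for stem cells and -0.15 for monocytes. The B cell, T cell and monocyte lists had 0 genes high for any of these marks, and the stem cell and erythroid lists had 1 each, for H3K4me3 only. In bulk cells a level averaged over all cells and a level carried by a few cells cannot be told apart.

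**Figure D5:**
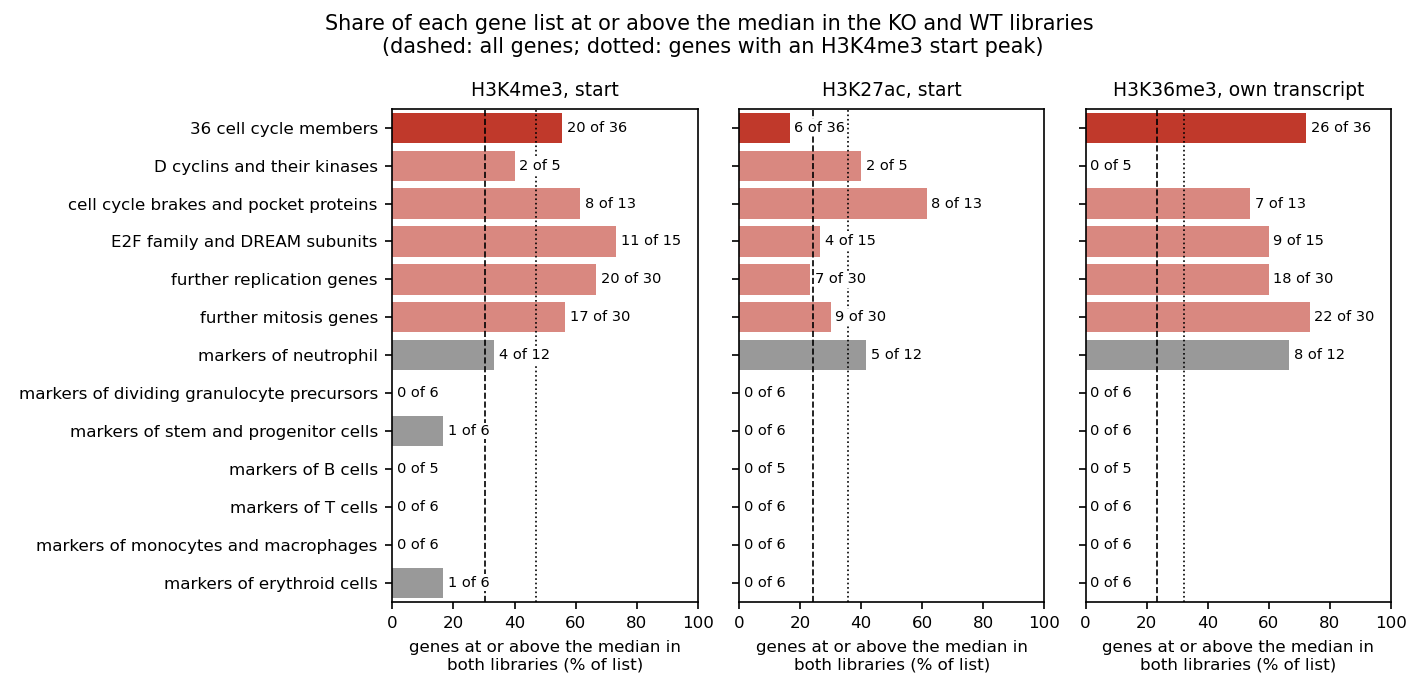
Share of each gene list at or above the median in both the KO and the WT library (x axis, percent of the list, counts beside the bars) for start H3K4me3, start H3K27ac and own-transcript H3K36me3. The dashed line is the share of all 20556 genes and the dotted line that of genes with an H3K4me3 start peak; the 36 members reach 6 of 36 for H3K27ac and 26 of 36 for H3K36me3, and the precursor markers 0 of 6 throughout.

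The promoter sequences were described by short words searched on both strands from 250 bases before to 50 after 1 RefSeq start per gene, a table that held 31 members (Ccna2, Ccne2, Aurkb, Mcm4 and Gmnn were not matched). The E2F words were TTTCCCGC, TTTGGCGC, TTTCGCGC and TTTGCCGC, the CHR words TTTGAA and TTCGAA, the second of which is its own reverse complement, and the third word was CCAAT, the binding word of NF-Y. An E2F word was found in 8 members (25.8%), against 2.32% of 27025 promoters, a CHR word in 15 (48.4%), against 19.4%, and CCAAT in 24 (77.4%), against 37.9%. The 8 with an E2F word were Cdk1, Cdk2, Cdc6, Mcm3, Mcm5, Mcm6, Mcm7 and Cdt1. In the lines printed above, Cdk2 and Cdc6 share the E2F word TTTCCCGC on the opposite strand, 140 and 138 bases before the RefSeq start, and Cdk2 was high and Cdc6 low for start H3K27ac. The RefSeq start of Cdc6 lies downstream of the deposited start from which its marks were read, judged by the offset of Top2a and Birc5 on the same chromosome. Its word is therefore not upstream of that deposited start, and the 2 genes are not like for like here. Top2a holds CHR words at 179, 140, 120 and 23 bases before the start and no E2F word, and Mcm7 holds a CHR word at 173 and an E2F word at 165. A match describes the letters and not a bound site. A start within 1 kb of that of a gene on the other strand was found in RefSeq for 3 of the 31 members (9.68%), Aurka with Cstf1, Mcm7 with Ap4m1 and Cdc45 with Ufd1, against 13.8% of genes with an H3K4me3 start peak, and start marks of such pairs cannot be told apart.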

How the data were processed

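Of 10 samples, 8 ChIP libraries (4 marks, KO and WT, 1 library per mark and genotype) were used. The 2 samples titled input DNA carry normal rabbit IgG in their antibody field and were left out. The submitters' processing notes name, without order or role, HOMER, DiffBind, MACS2 2.1.0, Bowtie2 2.2.3, Trimmomatic 0.32, bcl2fastq 2.16.0 and R 3.1.1, and the build mm9. Per the file headers, each deposited table lists the consensus peaks of 1 mark (H3K4me1 81980, H3K27ac 67733, H3K4me3 53500 and H3K36me3 43255 peaks) with the authors' normalized read signal of the KO and the WT library. The deposited log2 fold column of the authors was used only to check that it equals log2(KO/WT) of the signals. Any subtraction of input: not given in the sources used here. In every column 100% of signals were whole multiples of the smallest value within 0.01 of a read, so whole reads were recovered. Summed over peaks, the H3K36me3 libraries held 13095590 (KO) and 11618230 (WT) reads, those of H3K27ac 10265524 (KO) and 2250264 (WT), those of H3K4me3 10277795 (KO) and 2669490 (WT) and those of H3K4me1 14317664 (KO) and 2438593 (WT). A count test on these reads could not be fitted, since 1 library per group leaves no residual degrees of freedom. The intervals are Clopper-Pearson exact 95% intervals of the KO share of a gene's reads, and PCR copies make reads less than independent.

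Signals were summed over the peaks with the gene's name. Changes used a pseudocount of 1, which understates those of low values, and were centred on the median of genes in the upper part of each table. The start peak is the peak with the gene's name whose edge lies within 1 kb of the start, and of several the one with the highest mean signal. Percentiles are among all genes with the mark. Own-transcript peaks were found by matching the transcript of the deposited annotation, which goes by the peak's centre, to symbols in a RefSeq table of GRCm38.p6, from which no gene coordinate was taken. Starts for the windows past them were placed from the deposited distances. Promoter sequences are RefSeq's.

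Named are the members high for all 3 marks, the 3 highest and 3 lowest per mark per kb, those past 1.5-fold and the 2 highest and 2 lowest changes, and in the other lists the highest and lowest per mark and those past 1.5-fold, although not every gene this rule takes is reported. The members, lists and rules were chosen with earlier results of these data known. Alternatives were the centring, the pseudocount, the read filter, the peaks counted, thinning, the fold, the percentile, the library, the start window and the motif window. The steps were tested on simulated reads. The software was scipy 1.17.1, pandas 2.3.3, numpy 2.4.6 and matplotlib 3.10.9 under Python 3.11.15.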

Additional observations from a re-analysis of the deposited data

How the results depend on the processing

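No paired analysis was possible because there is 1 library per mark and genotype, and no replicate could be left out for the same reason. Of the summary values recomputed under alternatives, 73 stayed within the tolerance and 25 moved, the tolerance being 1.5 times for a count and the typical reach of a member's counting interval for a median change. Within it the members' median H3K27ac change of 0.01 became -0.01 with the running median, -0.02 with peaks within 5 kb only and -0.04 with peaks of the gene's own transcripts and promoter. All 94 values of single genes kept their direction. Members past 1.5-fold were 0 for H3K4me1 and became 1 with no filter on low reads and 1 with peaks within 5 kb of the start only. For H3K4me3 they were 0 and became 1 without centring and 1 with thinned KO reads. For H3K27ac they were 1 and became 2 with centring on a running median, 2 with peaks within 5 kb only, 3 with peaks of the gene's own transcripts and promoter, and 0 with a fold of 2. The counts of high members depend on the level asked for, and the shares of all genes under these alternatives are not given. At the 75th percentile they were 6 for H3K4me3, 0 for H3K27ac, 15 for H3K36me3 by gene name and 0 for all 3, and at the 25th percentile 36 for H3K4me3, 23 for H3K27ac and 16 for all 3. With summed signal they were 14 for H3K27ac and 8 for all 3. In the WT alone 10 were high for H3K27ac, and in the KO alone 7 for all 3. With a start window of 5 kb they were 11 for H3K27ac and 8 for all 3. With starts taken from the deposited promoter annotation, which by construction needs the peak's centre at the start, they were 8 for H3K4me3, 1 for H3K27ac and 1 for all 3. An E2F word within 100 bases of the start was held by 4 members. The 75th and 25th percentile, the fold of 2 and the 100-base window change counts by construction, and for the other changes the cause was not tested. The window of 1 to 5 kb past the start was added after the data had been seen. The first 3 marks had few WT reads (a median of 52 for H3K27ac start peaks of members, as low as 11), so smaller differences there were not detectable at this depth, and with 1 library per group animal, batch and genotype cannot be told apart.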
